A study of Mus musculus with 6 samples.

Results

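The genes described here carry the symbols of cytosolic ribosomal proteins, with paralogs such as Rpl7l1 and copies such as Rpl6l among them. They are the 84 of 15063 listed genes whose symbol has the form of a large subunit (Rpl, Rplp) or small subunit (Rps, Rpsa) protein, with pseudogene symbols and the S6 kinases left out. Of these, 52 belong to the large and 32 to the small subunit. They were measured by RNA-seq in cultured mesenchymal stem cells, the stromal progenitors of bone marrow that can form bone, cartilage and fat. All mice were 3 weeks old, and 3 libraries were wild-type (WT) while 3 carried the conditional Mapk7 knockout (CKO). Mapk7 encodes the MAP kinase ERK5, and the series asks how it shifts marrow stroma between the bone and fat lineages. Neither the Cre driver nor the strain is stated in the labels, and no treatment is named. Cells were at passage 5, except in WT library 2, where they were at passage 7. WT libraries 1 and 2 carry 1 animal label.

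A ribosome joins a small subunit, which reads the mRNA, to a large subunit, which forms the peptide bond, and each subunit needs nearly every one of its proteins in equal number. The mRNAs of these proteins are short and abundant. Most begin with a run of pyrimidines, the terminal oligopyrimidine (TOP) motif, through which mTORC1 and the RNA-binding protein LARP1 control their translation together. Transcription of the same genes and of ribosomal RNA follows cell growth and is promoted by MYC.

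The start regions of 8 members are shown, since a shared start is what the rule for choosing the genes did not use. They come from RefSeq on the build GRCm38.p6, while the expression values were made on mm9. Each window runs from 80 bases before to 20 bases from the annotated start on, 5′ to 3′, and capitals mark the longest run of at least 5 pyrimidines that begins with C within 10 bases of the start. Rpl35 and Rps18 were near the median member in WT library 2, at 0.447 and 0.473 of the mean of WT libraries 1 and 3, against a median of 0.478. Rps2, Rpl12 and Rpl4 had some of the lowest relative levels in WT library 2. Rps21, Rps27l and Rpl7l1 had some of the highest relative levels there.
Rpl35, chr2:39005112-39005211, minus strand: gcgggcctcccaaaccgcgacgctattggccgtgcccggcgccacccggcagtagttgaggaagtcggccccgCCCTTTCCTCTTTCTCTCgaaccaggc
Rps18, chr17:33955646-33955745, minus strand: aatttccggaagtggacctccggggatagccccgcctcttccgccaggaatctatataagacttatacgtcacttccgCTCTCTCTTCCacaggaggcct
Rps2, chr17:24719983-24720082, plus strand: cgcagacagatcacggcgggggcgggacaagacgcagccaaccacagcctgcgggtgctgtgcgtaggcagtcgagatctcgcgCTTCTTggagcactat
Rpl12, chr2:32961632-32961731, plus strand: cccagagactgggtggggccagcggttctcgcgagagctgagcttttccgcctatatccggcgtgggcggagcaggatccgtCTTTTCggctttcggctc
Rpl4, chr9:64173307-64173406, plus strand: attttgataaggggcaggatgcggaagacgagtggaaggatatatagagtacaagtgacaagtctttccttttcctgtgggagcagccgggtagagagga
Rps21, chr2:180257299-180257398, plus strand: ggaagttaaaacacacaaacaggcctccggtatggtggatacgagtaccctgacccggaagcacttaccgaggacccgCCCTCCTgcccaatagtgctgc
Rps27l, chr9:66946006-66946105, plus strand: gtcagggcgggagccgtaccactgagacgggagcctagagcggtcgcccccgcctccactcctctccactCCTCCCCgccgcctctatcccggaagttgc
Rpl7l1, chr17:46782637-46782736, minus strand: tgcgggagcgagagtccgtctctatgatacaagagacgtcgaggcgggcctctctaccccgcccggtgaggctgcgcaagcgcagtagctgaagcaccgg
Rpl35 held a run of 18 pyrimidines and Rps18 one of 11, while the windows of Rpl4 and Rpl7l1 held none at that place. In Rpl4 a pyrimidine tract lies further upstream of the annotated start.

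RefSeq start regions, 250 bases before to 50 after the start, were found for 63 of the 84 members. A gene with several starts was counted if any of them held the feature. Such a pyrimidine run lay near a start in 39 of the 63 (61.9%), against 36.8% of 8856 other tested genes with an entry and 34.4% of all 27025 genes with an entry. The motif CCGGAAG, the core bound by ETS factors, was present on either strand in 26 of the 63 (41.3%), against 21.2% of the other tested genes and 9.93% of all genes. AAGATGG, the core of the YY1 motif, was present in 10 (15.9%), against 8.65% and 7.28%. The TATA box TATAAA was present in 8 (12.7%), against 8.47% and 15.7%. TCTTTC, a piece of pyrimidine tract that can overlap the run near the start, was present in 25 (39.7%), against 20.3% and 24.5%. The run was as frequent in large subunit (24 of 39) as in small subunit genes (15 of 24). These motifs were chosen after the windows had been looked at. A match is a string of letters and no measure of binding or of translation.

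The library totals recovered from the values were 17351907 to 20689481 reads, with 99.1 to 99.6% of them in the listed genes. Reads outside genes may thus be missing from these totals. Levels are given in RPKM (reads per length of gene and per size of library), always in the order of libraries 1 to 3 of a genotype. Mapk7 was at 7.12, 6.76 and 9.07 RPKM in the WT libraries and at 5.59, 3.84 and 5.45 RPKM in the CKO libraries. Its transcripts were thus present in all CKO libraries, and whether the deleted exons are among them cannot be read from gene totals. The 16 stromal markers averaged 5.75 to 6.35 on the log2(RPKM + 1) scale. The 22 monocyte and macrophage markers averaged 2.76 to 5.10 with the third library of each genotype highest. All 8 endothelial and both listed lymphocyte markers, and the 3 listed erythroid markers, were below the filter for testing.

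Ribosomal protein transcripts were abundant in every library, and the widest departures were in WT library 2 and CKO library 2. The 84 genes together took 4.53, 2.08 and 4.63% of the recovered read totals in the WT libraries and 4.78, 7.77 and 5.58% in the CKO libraries. WT library 2 was the lowest and CKO library 2 the highest, and the other 4 lay between 4.53 and 5.58%. The summed level of the large subunit genes was 31240, 15264 and 32160 RPKM in the WT libraries and 32792, 54818 and 37857 RPKM in the CKO libraries. That of the small subunit genes was 21380, 10292 and 22104 RPKM in the WT libraries and 22644, 38350 and 26632 RPKM in the CKO libraries. Every CKO sum lay above every WT sum, but CKO library 1 exceeded WT library 3 by little. The mean sum was 1.59 times higher in CKO than in WT for the large and 1.63 times for the small subunit. Without WT library 2 the ratio was 1.32 and 1.34, and without WT library 2 and CKO library 2 it was 1.11 and 1.13. In bulk cultures, fewer cells with many ribosomes and less of these transcripts per cell cannot be told apart.

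**Figure D1:**
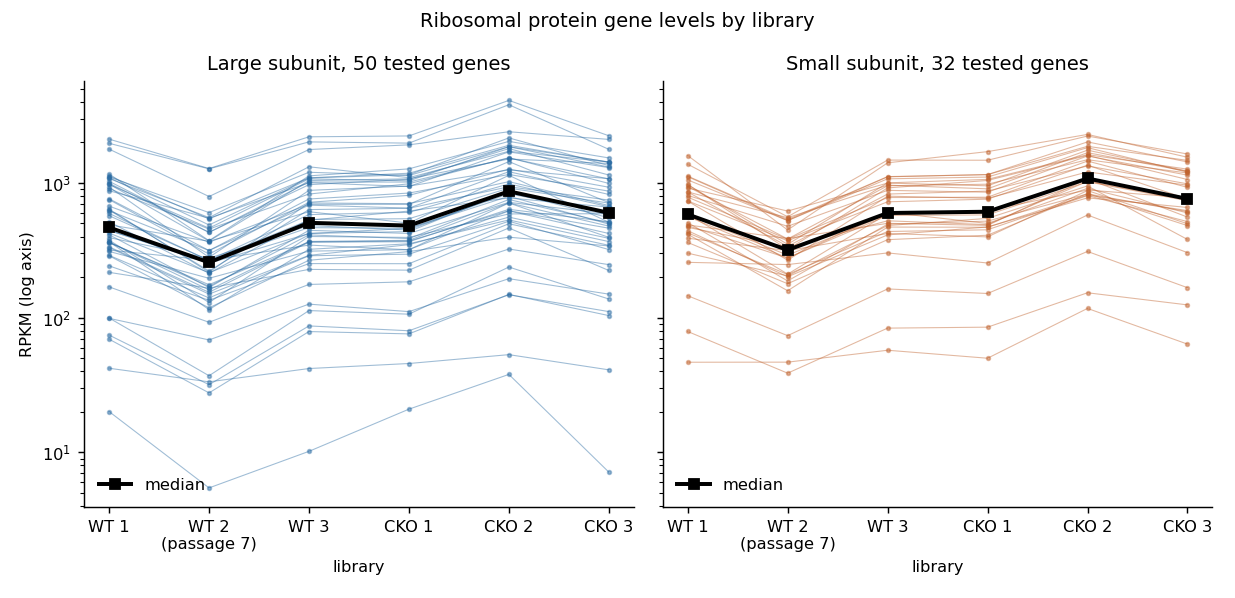
RPKM on a log axis (vertical) of each tested ribosomal protein gene in the 6 libraries (horizontal), with 50 large subunit genes on the left and 32 small subunit genes on the right. Thin lines are genes and the black line is the median. Nearly all lines dip in WT library 2 and peak in CKO library 2.

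Both subunits moved in step from library to library. The ratio of the summed large to the summed small subunit level was 1.46, 1.48 and 1.45 in the WT libraries and 1.45, 1.43 and 1.42 in the CKO libraries. It averaged 1.47 ± 0.015 in WT and 1.43 ± 0.014 in CKO (SD, n = 3 libraries, of which WT libraries 1 and 2 carry 1 animal label). The groups did not overlap in this ratio, but the gap was small, from 1.448 in CKO library 1 to 1.455 in WT library 3. The difference in this ratio was not tested. Of the 82 members that passed the filter on low values (RPKM of at least 1 in at least 3 libraries), 81 were lowest in WT library 2, as were 36.9% of all 11085 tested genes. CKO library 2 was highest for 81 of the 82, as it was for 22.9% of all tested genes. That was not particular to the members, since it was also highest for 74 of 78 mitochondrial ribosomal protein genes. The order of the members by level was similar in all libraries, with Spearman's rho across the 82 genes of 0.909 to 0.992 for the 15 pairs of libraries. The same genes, lengths and copies enter both sides of each such correlation.

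The level of the median member in WT library 2 was 0.478 of the mean of WT libraries 1 and 3, and 0.867 for the median of all tested genes. WT library 3 and CKO library 1 were close to WT library 1, at a median of 1.03 and 1.05 times its level, and CKO library 3 was at 1.27 times. CKO library 2 was at 1.85 times. For all tested genes the corresponding medians were 0.983, 0.987, 0.997 and 0.922. The similarity of CKO library 1 to WT library 1 extended over most members, from 0.966 to 1.14 times in the large subunit, and in the small subunit from 0.989 times up to 1.81 times for Rps27a.

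No ribosomal protein gene passed the test between genotypes, although all lay on the same side. Over all genes limma called 1 gene of 11085, which is 0.00902%, and it called 0 of the 50 large and 0 of the 32 small subunit genes at an adjusted p below 0.05. At an unadjusted p below 0.05 limma had 0 of the 82 members and 9.74% of all tested genes. Voom on recovered reads also called 0 and had 0 at the unadjusted level. All 82 log2 differences (CKO minus WT, on log2(RPKM + 1)) were above 0, as were 53.7% of all tested genes. They ranged from 0.25 to 1.01 in the large and from 0.40 to 0.98 in the small subunit. The median was 0.74 for the large and 0.76 for the small subunit, and 0.03 for all tested genes. The SE was 0.22 to 0.65, with a median of 0.43 for members and 0.28 for all tested genes. The lowest adjusted p among the members was 0.519 (limma, Rps15a). Members share their libraries, so 82 differences of 1 sign are not 82 independent observations.

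**Figure D2:**
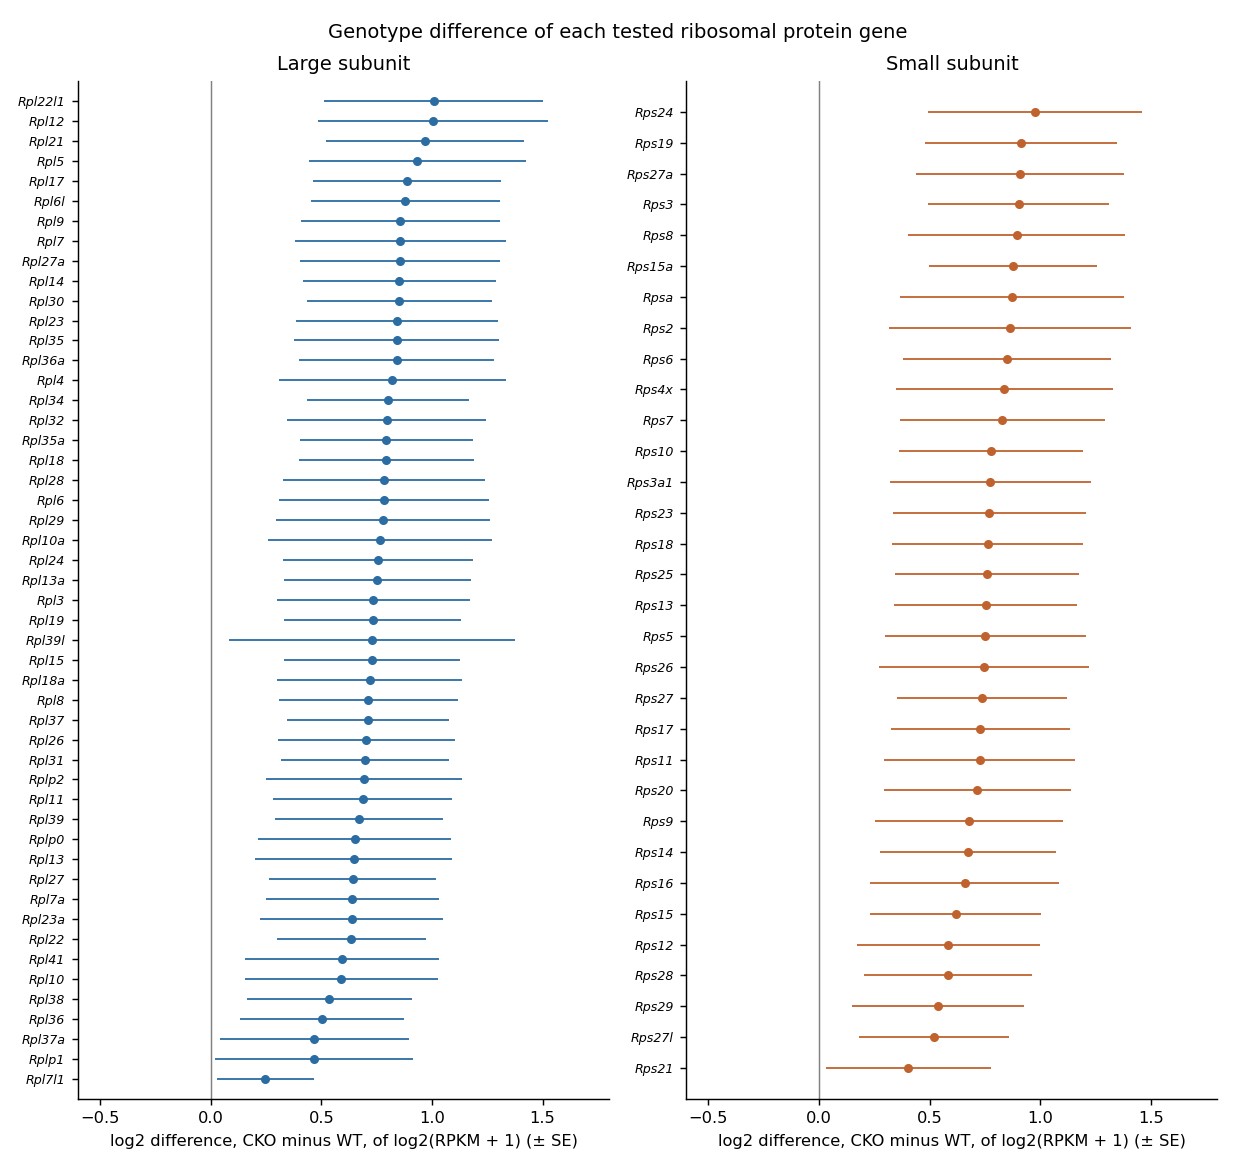
Log2 difference between genotypes (horizontal, CKO minus WT) with its standard error for each tested gene of the large (left) and small (right) subunit, ordered by size. All points lie above 0, from 0.25 for Rpl7l1 to 1.01 for Rpl22l1, and no gene passed the test.

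The CKO and WT levels did not overlap for 42 of the 82 members (26 large and 16 small subunit genes), all higher in CKO, against 7.51% of all tested genes. None of the 82 was lower in CKO without overlap, against 9.18% of all tested genes. The gaps were narrow: in these 42, the lowest CKO library was at a median of 1.03 times the highest WT library, and at most at 1.10 times. The lowest CKO library was CKO library 1 in all 42. The count of such members depended on which library was dropped. It rose to 73 of 82 when CKO library 1 was dropped, against 13.3% of all tested genes. Dropping WT library 3 gave 74, against 10.9%. Dropping WT library 1 gave only 45, against 16.4%, and dropping CKO library 3 gave 46, against 11.7%. The count stayed at 42 when WT library 2 or CKO library 2 was dropped, against 8.48% and 17.7%. With both of these dropped it was again 42, against 20.4% of all tested genes. These counts could hardly change, since WT library 2 was lowest for 81 of the 82 members and CKO library 2 highest for 81. They therefore do not measure how far the difference rests on these libraries. The median log2 difference was 0.40 in both subunits without WT library 2. It was 0.19 for the large and 0.17 for the small subunit without WT library 2 and CKO library 2, where 78 of the 82 lay above 0. After quantile normalization of all 6 libraries it was 0.52 for the large and 0.47 for the small subunit.

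The stalk proteins Rplp0, Rplp1 and Rplp2 recruit elongation factors to the large subunit, and transcripts of Rplp0 and Rplp1 were among the most abundant. Rplp0 was at 1782, 793 and 1769 RPKM in the WT libraries and at 1917, 2398 and 2104 RPKM in the CKO libraries. All CKO libraries lay above all WT libraries. Rplp1 was at 1968, 1272 and 2016 RPKM in the WT libraries and at 1974, 3805 and 1776 RPKM in the CKO libraries, so that CKO library 3 lay below WT libraries 1 and 3. The log2 difference was 0.65 (SE 0.44, limma adjusted p = 0.652) for Rplp0 and 0.47 (SE 0.45, limma adjusted p = 0.737) for Rplp1. That of Rplp1 was −0.09 without WT library 2 and CKO library 2. Rplp2 was at 672, 363 and 693 RPKM in the WT libraries and at 694, 1440 and 715 RPKM in the CKO libraries. The median log2 difference of the 3 stalk genes was 0.65, with 0 called by limma and 0 at an unadjusted p below 0.05. It was 0.26 when WT library 2 was left out, and 0.04 when CKO library 2 was left out as well. The 3 genes differed in CKO library 2, at 1.19 (Rplp0), 2.03 (Rplp1) and 2.04 (Rplp2) times the mean of CKO libraries 1 and 3. Their lengths were 1360, 468 and 438 bases in that order. Across members and other genes this ratio fell with gene length, as given below.

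Rpl5 and Rpl11 bind the small ribosomal RNA of the large subunit, and outside the ribosome they bind Mdm2 and so free p53. Rpl5 was at 376, 130 and 400 RPKM in the WT libraries and at 394, 589 and 591 RPKM in the CKO libraries. Rpl11 was at 290, 140 and 288 RPKM in the WT libraries and at 296, 519 and 320 RPKM in the CKO libraries. The pair differed in CKO library 3, where Rpl5 was as high as in CKO library 2 and Rpl11 was close to CKO library 1. The log2 difference was 0.93 (SE 0.49, limma adjusted p = 0.586) for Rpl5 and 0.69 (SE 0.40, limma adjusted p = 0.607) for Rpl11. The groups overlapped for Rpl5 and did not for Rpl11. The median log2 difference of the pair was 0.81.

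Proteins at the exit tunnel, through which the new peptide leaves, include Rpl4, Rpl17, Rpl39, Rpl23a, Rpl35 and Rpl19. Rpl4 was at 934, 280 and 881 RPKM in the WT libraries and at 947, 1250 and 1076 RPKM in the CKO libraries. In WT library 2 it was at 0.309 of the mean of WT libraries 1 and 3, the lowest such ratio of the tested large subunit genes. Rpl39 was at 393, 276 and 482 RPKM in the WT libraries and at 447, 858 and 552 RPKM in the CKO libraries, with a ratio of 0.631 in WT library 2. Rpl17 was at 336, 154 and 363 RPKM in the WT libraries and at 366, 637 and 515 RPKM in the CKO libraries. Rpl35 was at 1094, 488 and 1088 RPKM in the WT libraries and at 1150, 2158 and 1345 RPKM in the CKO libraries. All 6 had a log2 difference above 0, with a median of 0.78, and none passed limma, with 0 at an unadjusted p below 0.05.

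The highest large subunit gene was Rpl41, which encodes one of the smallest known proteins, at 2114, 1279 and 2199 RPKM in the WT libraries and at 2232, 4096 and 2239 RPKM in the CKO libraries. Its CKO libraries 1 and 3 were only just above WT library 3. Among the members with the lowest p in the large subunit, Rpl34 was at 169, 92.4 and 176 RPKM in the WT libraries and at 185, 323 and 248 RPKM in the CKO libraries (log2 difference 0.80, SE 0.37, limma adjusted p = 0.540). Rpl12, a stalk-base protein, was at 1166, 373 and 1128 RPKM in the WT libraries and at 1272, 2033 and 1533 RPKM in the CKO libraries, a log2 difference of 1.00 (SE 0.52, limma adjusted p = 0.586). The groups of Rpl34 and Rpl12 did not overlap.

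In the small subunit, Rps2, Rps3 and Rps9 lie where the mRNA enters and Rps23 lies at the decoding centre. Rps2 was at 1596, 448 and 1410 RPKM in the WT libraries and at 1708, 2291 and 1551 RPKM in the CKO libraries. It was the small subunit gene with the highest mean level and, at 0.298 of the mean of WT libraries 1 and 3, had the lowest ratio of all tested members in WT library 2. Rps3, which also takes part in DNA repair, was at 442, 201 and 411 RPKM in the WT libraries and at 471, 775 and 657 RPKM in the CKO libraries. Its groups did not overlap (log2 difference 0.90, SE 0.41, limma adjusted p = 0.538). The 4 genes had a median log2 difference of 0.82, with 0 called by limma and 0 at an unadjusted p below 0.05. Rps23 was at 1123, 535 and 1114 RPKM in the WT libraries and at 1152, 2015 and 1431 RPKM in the CKO libraries.

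At the mRNA exit and on the platform, Rps26 was at 1377, 561 and 1478 RPKM in the WT libraries and at 1474, 2228 and 1639 RPKM in the CKO libraries. Rpsa, known outside the ribosome as a laminin receptor, was at 975, 321 and 918 RPKM in the WT libraries and at 1043, 1599 and 1060 RPKM in the CKO libraries. Rps28 was at 389, 315 and 422 RPKM in the WT libraries and at 398, 878 and 498 RPKM in the CKO libraries. Thus WT library 2 held Rps28 at 0.777 of the mean of WT libraries 1 and 3 but Rpsa at 0.339 of it. The 4 genes of this list had a median log2 difference of 0.71, with 0 called by limma and 0 at an unadjusted p below 0.05. Rps6, the substrate of the S6 kinases, was chosen after its values were seen, and was at 587, 211 and 590 RPKM in the WT libraries and at 623, 886 and 776 RPKM in the CKO libraries.

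Rps19, the gene most often mutated in Diamond-Blackfan anaemia, a congenital failure of red cell formation, was at 362, 179 and 379 RPKM in the WT libraries and at 409, 835 and 482 RPKM in the CKO libraries (log2 difference 0.91, SE 0.43, limma adjusted p = 0.556). Rps24, mutated in the same disease, was at 416, 158 and 470 RPKM in the WT libraries and at 469, 813 and 623 RPKM in the CKO libraries. WT library 3 exceeded CKO library 1 for Rps24, and the groups of Rps19 did not overlap. All 18 members on the list of genes for this disease lay above 0, with a median log2 difference of 0.74, and limma called 0 of them, with 0 at an unadjusted p below 0.05. Without WT library 2 the median was 0.44 for this list, 0.38 for Rpl5 and Rpl11, 0.42 for the exit tunnel, 0.38 for mRNA entry and decoding and 0.39 for mRNA exit and platform.

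Levels per length rest on the gene models, which differ widely. The recovered lengths of the tested members ran from 346 bases (Rps27) to 5136 bases (Rps15a). Rps15a, the member with the lowest p, was at 79.0, 38.7 and 83.6 RPKM in the WT libraries and at 85.0, 153 and 124 RPKM in the CKO libraries, low for the group, although 4116 reads were counted for it in WT library 2. Rps20, with a model of 3446 bases, was likewise low at 145, 73.6 and 163 RPKM in the WT libraries and at 151, 310 and 167 RPKM in the CKO libraries. Rps15a had a log2 difference of 0.88 (SE 0.38, limma adjusted p = 0.519). Of the 82 tested members, 78 had over 1000 reads in every library, and the fewest were 97 reads, for Rpl39l in WT library 2.

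Most members followed the median of their subunit closely. Pearson's r between a member's log2 level and the median pattern over the 6 libraries had a median of 0.983, and it exceeded 0.9 for 72 of the 82, each member being a part of that median. The members named as departing were chosen after their values were seen. Rps27l, a paralog of Rps27 that p53 induces, was at 46.7, 46.8 and 57.3 RPKM in the WT libraries and at 50.003, 117 and 63.6 RPKM in the CKO libraries. Unlike nearly all others it was as high in WT library 2 as in WT library 1. Rps21 was at 257, 248 and 302 RPKM in the WT libraries and at 255, 578 and 304 RPKM in the CKO libraries. CKO libraries 1 and 3 lay within or just above the WT range and CKO library 2 lay far above it, and without WT library 2 and CKO library 2 the log2 difference was −0.0046. Rpl7l1, a paralog of Rpl7 with a role in ribosome assembly, was the steadiest, at 42.1, 33.4 and 41.9 RPKM in the WT libraries and at 45.7, 53.2 and 41.0 RPKM in the CKO libraries. Its partner Rpl7 was at 981, 370 and 1041 RPKM in the WT libraries and at 1073, 1505 and 1394 RPKM in the CKO libraries, with no overlap.

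Rps27a, made as a fusion with ubiquitin, followed another order of libraries. It was at 301, 204 and 483 RPKM in the WT libraries and at 545, 950 and 381 RPKM in the CKO libraries. Thus CKO library 1 was 1.81 times WT library 1 and CKO library 3 lay below WT library 3. Rpl39l, a paralog of Rpl39 best known from testis, was at 20.1, 5.45 and 10.2 RPKM in the WT libraries and at 20.9, 37.9 and 7.14 RPKM in the CKO libraries. CKO library 3 was the next lowest after WT library 2, and its log2 difference of 0.73 (SE 0.65, limma adjusted p = 0.722) was −0.20 without WT library 2 and CKO library 2. Rpl39l is also the tested member with the fewest reads.

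**Figure D3:**
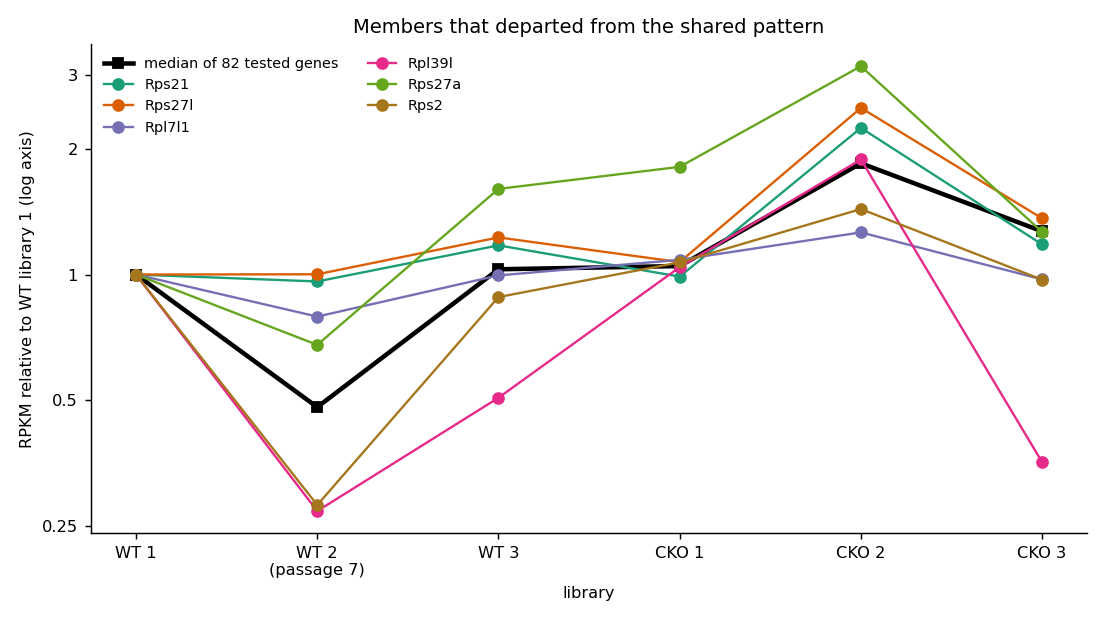
RPKM relative to WT library 1 (vertical, log axis) in the 6 libraries for the median of the 82 tested genes (black) and for 6 genes chosen after their values were seen. Rps21, Rps27l and Rpl7l1 stayed between 0.79 and 1.00 of WT library 1 in WT library 2, where the median was at 0.48, Rps2 at 0.28 and Rpl39l at 0.27.

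Rpl22l1, the paralog of Rpl22, had the largest log2 difference of the tested members, 1.01 (SE 0.49, limma adjusted p = 0.568). It was at 99.5, 37.1 and 113 RPKM in the WT libraries and at 106, 238 and 138 RPKM in the CKO libraries. Rpl22 was at 98.9, 68.4 and 126 RPKM in the WT libraries and at 111, 195 and 150 RPKM in the CKO libraries. The level of Rpl22l1 was 54.2% of that of Rpl22 in WT library 2 and 122% in CKO library 2, and 89.6 to 101% in the other 4. The muscle paralog Rpl3l was at 0.189, 0 and 0.157 RPKM in the WT libraries and at 0.0576, 0 and 0 RPKM in the CKO libraries, too low to be tested, while Rpl3 was at 763, 315 and 760 RPKM in the WT libraries and at 841, 1155 and 869 RPKM in the CKO libraries. Rpl32l was also below the filter. The 4 tested paralogs had a median log2 difference of 0.62 and their 7 partners one of 0.74, which were 0.39 and 0.37 without WT library 2, with 0 called by limma on either list and 0 at an unadjusted p below 0.05.

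Many ribosomal protein genes have near-identical copies, and how reads that fit several places were counted is not given in the sources used here. Rpl6l was at 11.8 to 15.8% of Rpl6 in each library, at 74.3, 31.8 and 86.8 RPKM in the WT libraries and at 79.96, 148 and 111 RPKM in the CKO libraries. Rpl21 was low at 69.2, 27.7 and 78.9 RPKM in the WT libraries and at 75.8, 149 and 104 RPKM in the CKO libraries. The levels of Rpl6l, Rpl21 and other members with close copies are therefore uncertain.

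The ratio in CKO library 2 fell with gene length, in members and in other genes. That in WT library 2 was related to length within the members, but hardly across other genes. In CKO library 2, members shorter than 600 bases were at a median of 1.67 times the mean of CKO libraries 1 and 3, and members of 600 to 1000 bases at 1.59 times. Other tested genes of these lengths were at 1.76 times (133 genes) and 1.63 times (418 genes). From 1000 to 2000 bases members were at 1.45 and other genes at 1.32 times, and from 2000 bases on 7 members were at 1.49 and other genes at 0.827 times. Across genes, Spearman's rho of this ratio with length was −0.508 in the 82 members and −0.532 in 10987 other genes. Genes share their library, so these values are descriptions.

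In WT library 2 the members were lower than other genes of like length. Members were at a median of 0.538, 0.472, 0.420 and 0.484 of the mean of WT libraries 1 and 3 in the same 4 length classes, from shortest to longest, and other tested genes at 0.938, 0.910, 0.852 and 0.870. Within the members rho with length was −0.368, and it was 0.0395 in 10948 other genes. Members differed widely at like length: Rpl38 (465 bases) was at 0.804 and Rpl35 (452 bases) at 0.447, and Rps27l (2150 bases) was at 0.899 and Rpl5 (2025 bases) at 0.334. These pairs were chosen after their values were seen. After each library was adjusted for length, the median log2 difference between genotypes was 0.59 for the large and 0.54 for the small subunit, and limma called 0 members, with 6 at an unadjusted p below 0.05. The part of length or passage in the genotype difference was not tested beyond this.

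**Figure D4:**
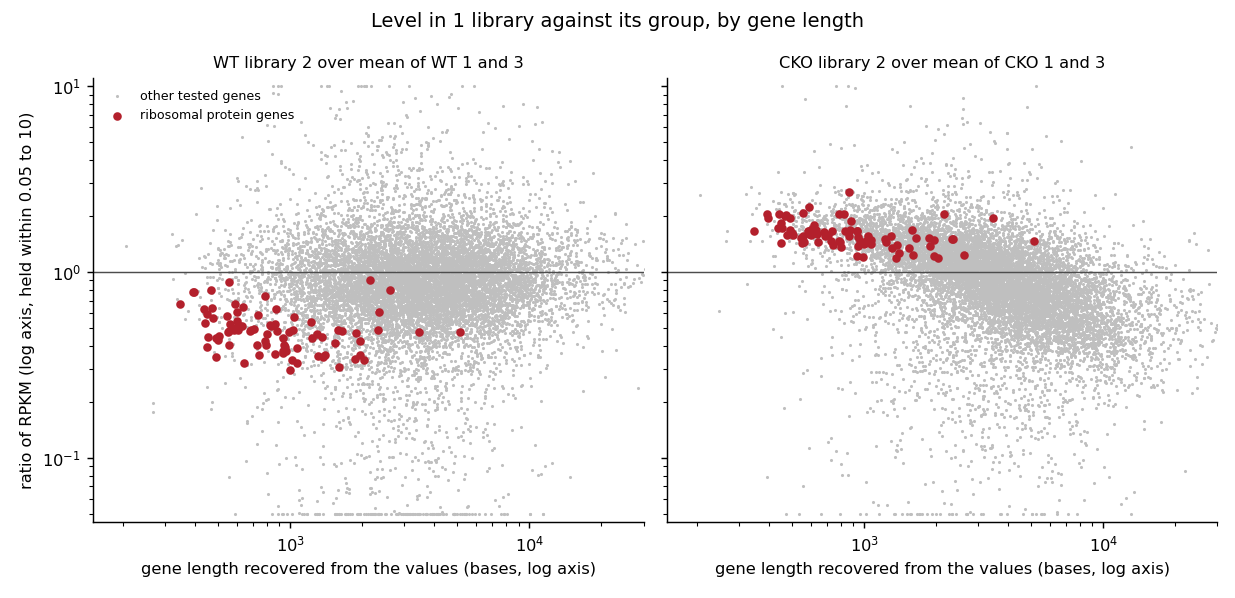
Ratio of RPKM in WT library 2 (left) and CKO library 2 (right) to the mean of the other 2 libraries of the genotype (vertical, log axis) against gene length in bases (horizontal, log axis). Red points are the 82 tested ribosomal protein genes and grey points all other tested genes. Ratios beyond 0.05 to 10 are drawn at those limits. On the left most red points lie below grey points of like length, with medians of 0.420 to 0.538 against 0.852 to 0.938, and on the right they lie among them below 1000 bases.

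Other genes of translation moved with the members to differing degrees. The 7 tested elongation factor genes were at a median of 0.455 in WT library 2 and 1.36 in CKO library 2, relative to the other libraries of the genotype. Eef1a1, the factor that brings aminoacyl-tRNA to the ribosome, was at 5382, 2244 and 5287 RPKM in the WT libraries and at 5728, 5728 and 7029 RPKM in the CKO libraries. For this TOP mRNA CKO library 2 thus equalled CKO library 1. All 19 tested TOP mRNAs outside the gene symbols used here lay above 0, with a median log2 difference of 0.67, and all 7 elongation factor genes did, with 0.70. These lists overlap, with Eef1b2 on both, so they are not separate observations. The 5 ribosomal proteins on the list of other symbols, 1 of which (Rps3a1) is also among the 84, had a median of 0.71, all above 0. Rack1, a small subunit protein under another symbol, was at 864, 401 and 847 RPKM in the WT libraries and at 944, 1487 and 1146 RPKM in the CKO libraries. Of the 35 initiation factor genes 32 lay above 0, with a median of 0.35. Without WT library 2 the medians were 0.34 for elongation factors, 0.28 for the TOP mRNAs, 0.34 for the ribosomal proteins under other symbols and 0.13 for initiation factors. Without WT library 2 and CKO library 2 they were 0.25, 0.17, 0.10 and 0.03. Limma called none of the genes on these 4 lists, with 0 at an unadjusted p below 0.05.

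Ribosome assembly genes were also lowest in WT library 2. Of 68 ribosome biogenesis genes 66 lay above 0, with a median log2 difference of 0.57, and 59 were lowest in WT library 2. The median was 0.30 without WT library 2 and 0.21 without WT library 2 and CKO library 2. Limma called none of them, and 6 had an unadjusted p below 0.05. Npm1, the nucleolar protein nucleophosmin, was at 427, 104 and 354 RPKM in the WT libraries and at 494, 483 and 614 RPKM in the CKO libraries. Nop2, a ribosomal RNA methyltransferase gene, was at 26.4, 12.2 and 22.006 RPKM in the WT libraries and at 30.5, 41.3 and 30.0 RPKM in the CKO libraries, with no overlap. Of 20 genes of the RNA polymerase I machinery 16 lay above 0, with a median of 0.26, and 0.11 without WT library 2, and limma called none, with 0 at an unadjusted p below 0.05.

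Mitochondrial ribosomal proteins, which build a separate ribosome, were less low than the cytosolic ones in WT library 2. Their 78 genes were at a median of 0.791 there, against 0.478 for the cytosolic genes and 0.867 for all tested genes. In CKO library 2 both kinds were at 1.55. Their median log2 difference was 0.23, with 65 above and 13 below 0, and it was −0.02 without CKO library 2 and −0.09 without WT library 2 and CKO library 2. The difference between these lists was not tested, and limma called none of the 78 genes, with 0 at an unadjusted p below 0.05.

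The 20 tested genes of the mTORC1 and S6 kinase branch split into 10 above and 10 below 0, with a median of 0.00, and −0.02 without WT library 2. Eif4ebp1, the translation repressor that mTORC1 inactivates, was at 131, 41.0 and 125 RPKM in the WT libraries and at 141, 195 and 151 RPKM in the CKO libraries. Of 9 tested MYC network genes 6 lay above 0, with a median of 0.07, and −0.03 without WT library 2. Myc itself was at 44.7, 2.68 and 24.1 RPKM in the WT libraries and at 43.9, 45.9 and 53.6 RPKM in the CKO libraries, so WT library 2 was far below all others (log2 difference 1.59, SE 0.85, limma adjusted p = 0.590). Of 12 genes of the p53 branch that Rpl5 and Rpl11 feed, 10 lay above 0, with a median of 0.35, and 0.37 without WT library 2. Of 12 genes of ribosome quality control 10 lay above 0, with a median of 0.12. Limma called none of the genes on these 4 lists. At an unadjusted p below 0.05 there were 1, 2, 3 and 0 of them.

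The 30 cell cycle genes were at a median of 0.0440 in WT library 2 relative to WT libraries 1 and 3, and all 30 were lowest there. In CKO library 2 they were at 1.02. Their median log2 difference was 0.78, and −0.15 without WT library 2, with 0 called by limma and 0 at an unadjusted p below 0.05. Their summed level was 853, 83.6 and 514 RPKM in the WT libraries and 864, 692 and 386 RPKM in the CKO libraries. Low ribosomal protein and low cell cycle levels thus coincided in the passage 7 library. They did not in CKO library 3, which had the next lowest cell cycle sum and the next highest share of reads in ribosomal protein genes, 5.58%. The high ribosomal protein level of CKO library 2 had no counterpart in the cell cycle genes. The 22 macrophage markers summed to 1195, 889 and 2528 RPKM in the WT libraries and to 830, 469 and 3829 RPKM in the CKO libraries and were lowest in CKO library 2. Their median log2 difference was −0.24, and −0.71 without WT library 2, and that of 15 tested stromal markers −0.43, with 0 called by limma on either list and 0 and 5 genes at an unadjusted p below 0.05. Of the granulocyte markers 1 was tested, with a log2 difference of 0.32, and −0.19 without WT library 2. The part of passage, cell cycle or macrophage transcripts in the ribosomal protein levels was not tested.

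**Figure D5:**
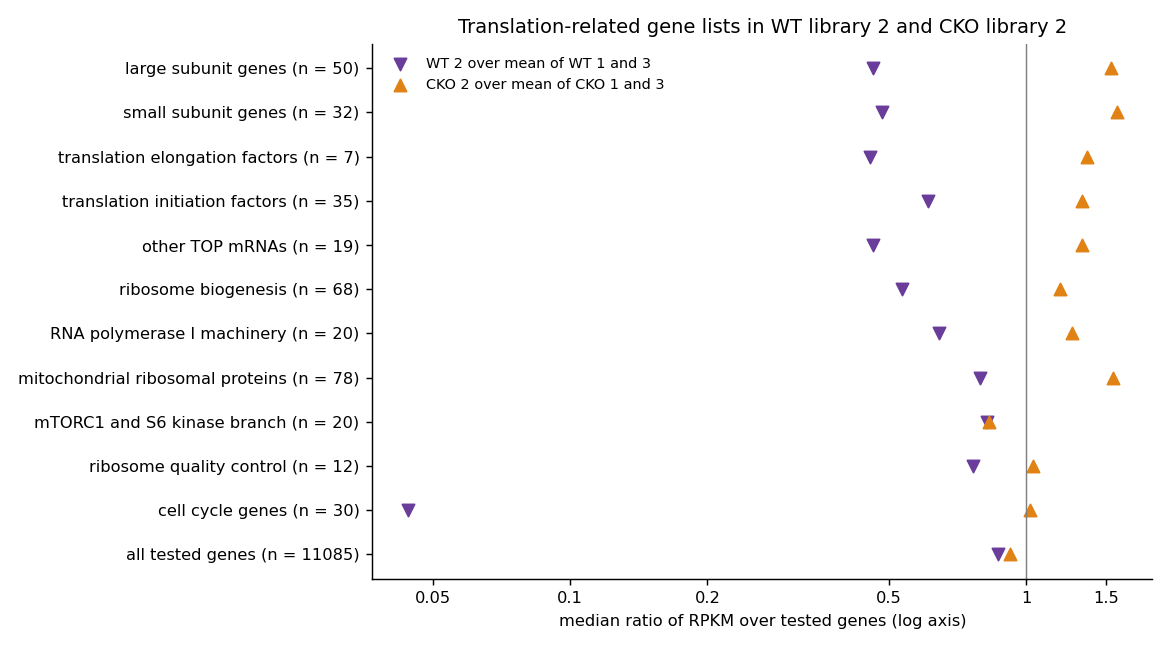
Median ratio of RPKM (horizontal, log axis) in WT library 2 (purple) and in CKO library 2 (orange) to the mean of the other 2 libraries of the genotype, for gene lists (vertical) with their number of tested genes. The cytosolic ribosomal protein lists lie at 0.462 and 0.484 in WT library 2, the mitochondrial list at 0.791 and the cell cycle list at 0.0440.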

How the data were processed

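The authors deposited 1 value per gene and library for 15063 genes. The file headers name the values only as expression. The unit, RPKM, was worked out from the deposited values: once a total was found for each library and a length for each gene, 15056 genes (99.95%) gave whole reads within 0.01 read or a relative error of 1e-07, and 0 of 300 genes with shuffled values did. The submitters' processing notes name the build mm9, and the libraries came from a stranded mRNA kit, per the labels' protocols. For the aligner, counter, annotation and use of strand the sources used here give nothing.

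Log2(RPKM + 1) was fitted for the 11085 genes that reached 1 RPKM in 3 or more libraries, with limma 3.58.1 in R 4.3.3 (genotype only, intensity trend, robust moderation, two-sided, Benjamini-Hochberg over all tested genes, threshold 0.05). Such differences understate the change of low genes. The fit was also run on simulated data in which genes varied independently of each other. That run held no shift shared by many genes of a library, so it does not show how the fit handles such shifts. Over 1 kb, 3 reads equal 0.145 to 0.173 RPKM, which covers counting error only. Whether the libraries of a genotype came from separate cultures is not said, and the spread behind the p-values may be partly technical. The header of WT library 3 gives another animal number than its description.

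Members and lists were chosen with earlier results of these data known. Named members are the highest and lowest in level and in p per subunit, paralogs with their partners, and members at the stalk, tunnel and mRNA path. Others are said to be chosen after their values were seen. Alternatives were a pseudocount of 0.1, other filters and normalizations, plain limma, voom on recovered reads, a replicate block, the WT libraries of 1 animal label averaged, and each library left out. A length adjustment (lowess, span 0.3) and leaving out WT library 2 with CKO library 2 were added after seeing the data.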

Additional observations from a re-analysis of the deposited data

How the results depend on the processing

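In all 17 alternatives 0 ribosomal protein genes passed, with a lowest adjusted p of 0.372 (limma), and up to 6 had an unadjusted p below 0.05. In the main fit 9.74% of all tested genes had such an unadjusted p. The medians of both subunits kept their direction in all of them. With 1 library left out, the median log2 difference was 0.3976 to 0.9371 for the large and 0.4041 to 0.9418 for the small subunit, and the ratio of summed RPKM 1.319 to 1.799 and 1.343 to 1.844. Without WT library 2 and CKO library 2 the medians were 0.1887 and 0.1739 and the ratios 1.114 and 1.133. In that setting 4 members turned, with log2 differences of −0.2014 for Rpl39l, −0.08945 for Rplp1, −0.1093 for Rpl37a and −0.004589 for Rps21. With 1 library left out they were 0.2159 to 1.345 for Rpl39l, 0.1261 to 0.6757 for Rplp1, 0.07947 to 0.6681 for Rpl37a and 0.05228 to 0.6425 for Rps21.

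The count over all genes, 1, was 0 with a pseudocount of 0.1, no filter, voom, the replicate block, or without WT library 2 and CKO library 2. It was 2 after median centring, quantile normalization or length adjustment, 4 with the filter at RPKM 5, and 50 after averaging the WT libraries that carry 1 animal label. With 1 library left out it was 0 to 24. The causes were not tested. Deviations from the genotype mean correlated at 0.198, 0.0145 and −0.0192 between libraries of the same number. For the other pairs the values ran from −0.230 to 0.206. With 3 libraries a genotype, such values cannot decide whether libraries of the same number were paired. Under the replicate block limma called 0 members, the lowest adjusted p being 0.554. The median SE of 0.43 over members, from 3 libraries a genotype, limits what could pass.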

Other observations

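Some rows outside the rule carry the names of ribosomal protein copies. Rps27rt, a copy of Rps27, was at 38.4, 24.4 and 40.8 RPKM in the WT libraries and at 45.6, 101 and 91.9 RPKM in the CKO libraries (log2 difference 1.13, SE 0.37, limma adjusted p = 0.376). Its level was 7.32 to 9.78% of that of Rps27 in 5 libraries and 12.2% in CKO library 3. Rpl34-ps1 was at 39.9, 22.002 and 38.5 RPKM in the WT libraries and at 53.3, 66.5 and 56.5 RPKM in the CKO libraries, with no overlap, and was at 20.6 to 28.9% of Rpl34. Rpl37rt was at 14.2 to 17.0% of Rpl37 in the 6 libraries. The other 7 pseudogene rows were below the filter on low values. None of these rows passed the test, and reads shared with the parent genes cannot be told apart from their own.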
